A study of Mus musculus with 15 samples.

Results

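Rrm2b, Xpc, Polk, Ercc5 and Ddb2 are 5 genes of DNA repair and nucleotide supply that are commonly listed as targets of the transcription factor p53. They were found by their symbols, and all 5 were among the 24819 genes of both deposited tables. Polyadenylated RNA was sequenced from E14, a line of embryonic stem cells from the mouse, cultured in serum plus leukemia inhibitory factor on gelatin-coated plates. The cells received an siRNA against Rpl11 (siRpl11), Rpl14 (siRpl14), Rpl18 (siRpl18) or Rpl23 (siRpl23), or a non-targeting siRNA (siNT), by DharmaFECT transfection. The labels name no other allele or agent in any group, no second siRNA against the same gene and no number of separate cultures. The time is 48 h by the titles and 3 days by the protocol, and which one applies was not settled. There were 15 libraries, 3 for each siRNA. The first table holds replicates 1 and 2 and another, normalized separately, holds the third library of each group, so each test of a knockdown was made within the first table. In bulk RNA, fewer cells that express a gene and less of its RNA per cell cannot be told apart.

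p53 is held low in unstressed cells by the ubiquitin ligase Mdm2. Free proteins of the large ribosomal subunit, Rpl11 and Rpl23 among them, can bind Mdm2 when ribosome assembly is disturbed, and p53 then accumulates. Among its targets are genes that act on damaged DNA. Ddb2 and Xpc find lesions in nucleotide excision repair, which cuts out bulky damage such as ultraviolet photoproducts. Ercc5 (the XPG nuclease) makes the incision on the 3′ side of the lesion. Polk is a DNA polymerase that copies past some bulky lesions, and Rrm2b is the p53-inducible small subunit of ribonucleotide reductase, which makes deoxyribonucleotides. Induction by p53 was described for DDB2 and XPC in human cells, and the mouse Ddb2 gene is known to lack the p53 response of its human counterpart.

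Values are FPKM (fragments scaled by transcript length and by library size, in a way not stated), with mean ± SD over replicates 1 and 2 (n = 2). Fold changes are differences in log2(FPKM + 1), given as estimate ± SE, with limma's p adjusted by the Benjamini-Hochberg method over 12249 genes and a threshold of 0.05. This scale understates changes at low FPKM. Since nothing states that replicates came from separate cultures, the p-values cover only library-to-library spread, possibly technical.

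The targeted transcripts were reduced in the libraries labelled for them. Rpl11 was at 24.0% of siNT in siRpl11, Rpl14 at 51.6% in siRpl14, Rpl18 at 32.6% in siRpl18 and Rpl23 at 36.3% in siRpl23; in the third libraries 19.9%, 38.5%, 31.2% and 31.1% remained. All 10 embryonic stem cell markers were detected, with summed levels of 5400 to 7282 FPKM in the 4 knockdowns and 7266 to 8297 FPKM in siNT. Of these 10, 5 were lower and 4 higher in siRpl11, and 7 lower and 2 higher in each of the other knockdowns. Nanog averaged 192 to 259 FPKM in the knockdowns against 439 in siNT, and Esrrb 111 to 170 against 254, whereas Sall4 averaged 82.7 to 132 against 56.8. Of 10 fibroblast and feeder markers, 6 stayed at or under 0.1 FPKM in every library, and the list summed to 5.25 to 12.8 FPKM in the knockdowns and 17.4 to 21.0 in siNT, most of it Thy1. The 8 primitive endoderm markers summed to 6.58 to 15.5 FPKM in the knockdowns and 8.62 to 13.4 in siNT, and of 5 tested 3 or 4 were higher and 1 lower. The 8 trophectoderm markers, which mark the outer layer of the blastocyst, summed to 85.9 to 103 FPKM in siRpl14, 62.8 to 68.2 in siRpl18 and 86.7 to 99.6 in siRpl23. Their sum was 28.0 to 32.0 FPKM in siRpl11 and 30.2 to 31.9 in siNT, and Elf5 was at or under 0.1 FPKM in every library. Most of the sum was Tfap2c, Krt8 and Krt18. Of 7 tested, 2 were higher and 3 lower in siRpl11, and 6 were higher and 0 lower in each of the other knockdowns. Over all genes tested, 27.3% to 34.9% were higher and 29.5% to 43.6% lower in the 4 knockdowns. In siRpl11 the shares of trophectoderm markers (28.6% higher, 42.9% lower) were near those of all genes (27.3% and 43.6%). Those of stem cell markers there were 40% and 50%. The part of these marker changes in the results below was not tested. Depth, as a rough estimate from genes at low FPKM, was 0.697 to 1.39 times that of siNT replicate 1 in the first table. It was 1.00 to 1.30 times that of the siNT library among the third libraries.

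The 5 genes did not move as 1 group, and the name p53-induced, under which they were chosen, did not describe the direction of all of them here. Ercc5 rose in all 4 knockdowns, and Polk rose in siRpl14, siRpl18 and siRpl23. Xpc and Ddb2 fell in all 4 knockdowns, and Rrm2b passed the threshold in none. In siRpl11, 1 of 5 was higher and 2 were lower, where 27.3% of all genes tested were higher and 43.6% lower. In each of siRpl14, siRpl18 and siRpl23, 2 of 5 were higher and 2 lower. The shares over all genes were 33.3% higher and 29.5% lower in siRpl14, 32.8% and 34.7% in siRpl18, and 34.9% and 30.8% in siRpl23. Against these shares the counts of members are not a result, and the values below concern single genes. In siRpl11, 38.5% of all calls were higher, and 50.9% with quantile normalization or with median-ratio scaling, which moved the median of all genes from -0.11 to 0.01. The 4 comparisons share the same siNT libraries.

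**Figure D1:**
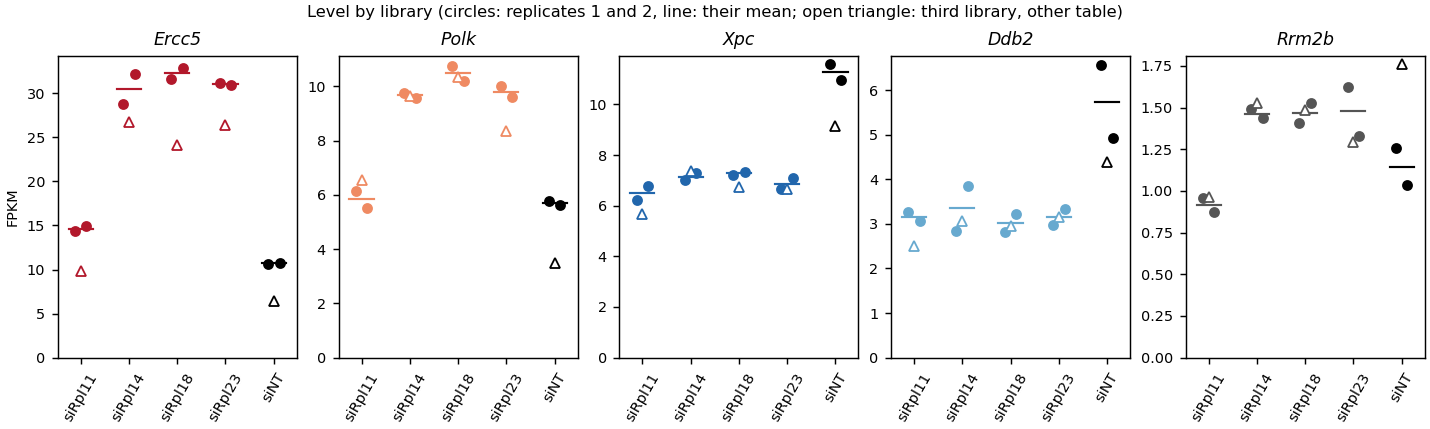
FPKM of each gene (vertical axis, from 0) in the 4 knockdown groups and siNT; circles are replicates 1 and 2, the line is their mean and the open triangle is the third library from the other table. Ercc5 and Polk are higher in siRpl14, siRpl18 and siRpl23 than in siNT, Xpc and Ddb2 are lower in all 4 knockdowns, and Rrm2b stays between 0.871 and 1.76 FPKM throughout.

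The sequence upstream of Ercc5 is shown because Ercc5 had the largest change of the 5 in siRpl14, siRpl18 and siRpl23. These are the 250 bases before its RefSeq start on build GRCm38.p6, plus strand, at chr1:44147494-44147743, a build other than the mm9 of the FPKM tables. Capitals mark the 4-letter core of the p53 motif, which is C, then A or T at both middle positions, then G. Its reverse complement has the same form, so the search covers both strands.
Ercc5: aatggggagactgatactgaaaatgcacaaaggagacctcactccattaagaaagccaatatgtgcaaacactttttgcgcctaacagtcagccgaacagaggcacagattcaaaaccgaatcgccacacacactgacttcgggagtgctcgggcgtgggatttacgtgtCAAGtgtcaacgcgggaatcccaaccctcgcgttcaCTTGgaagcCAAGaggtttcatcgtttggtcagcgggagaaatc
The window held 3 cores, and 71.0% of the 32851 RefSeq upstream windows of this length held at least as many. It held no full match to the p53 half-site consensus, which 7.13% of windows held. That says only that these letters are absent from this window, since p53 elements can also lie farther upstream or in introns. The window held 14 CpG dinucleotides, more than in 70.6% of windows. Polk matched 2 windows of the same RefSeq set, which were not examined by themselves. Rrm2b, Xpc and Ddb2 matched 0 windows, so their upstream sequences were not searched.

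Ddb2 encodes the lesion-binding subunit of the UV-DDB complex. It was measured at 3.26 and 3.07 FPKM in siRpl11, 2.84 and 3.86 in siRpl14, 2.81 and 3.21 in siRpl18, and 2.97 and 3.33 in siRpl23, against 6.56 and 4.93 in siNT. In the third libraries it was at 2.51, 3.06, 2.96 and 3.16 FPKM in the same knockdowns, against 4.38 in siNT. Every knockdown library was below every siNT library of its own table. The siNT libraries differed more among themselves (5.74 ± 1.16) than the knockdowns did. The fold change was -0.69 ± 0.14 in siRpl11 (limma adjusted p = 0.00113), -0.63 ± 0.14 in siRpl14 (0.00231), -0.74 ± 0.14 in siRpl18 (0.000762) and -0.69 ± 0.14 in siRpl23 (0.00125). Mean FPKM was 52.5% to 58.3% of siNT for replicates 1 and 2 and 57.3% to 72.0% in the third libraries. Of all genes, 6.90% had a lower fold change than Ddb2 in siRpl14, 6.69% in siRpl18, 6.69% in siRpl23 and 14.3% in siRpl11. Ddb2 overlaps Acp2, a lysosomal phosphatase gene on the opposite strand in GENCODE M21, and whether strand was used in counting is not given in the sources used here. Acp2 was at 4.41 to 5.35 FPKM in the knockdowns and 4.69 in siNT, and it passed in none (limma adjusted p of 0.155 to 0.529). Other members overlap genes too, for which no values were given. Polk overlaps Gm17622 on the opposite strand, and Rrm2b overlaps the pseudogene Gm3362 on its own strand and Gm49085 on the opposite one.

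Xpc encodes the protein that recognises the distorted helix and recruits the repair machinery. It was measured at 6.21 and 6.78 FPKM in siRpl11, 7.01 and 7.27 in siRpl14, 7.23 and 7.32 in siRpl18, and 6.66 and 7.08 in siRpl23, against 11.6 and 10.95 in siNT (11.3 ± 0.465). The third libraries held 5.65, 7.35, 6.74 and 6.66 FPKM in these knockdowns, against 9.13 in siNT. The knockdown libraries of both tables lay between 5.65 and 7.35, and none reached the lowest siNT library. The fold change was -0.71 ± 0.06 in siRpl11 (limma adjusted p = 5.28e-06), -0.59 ± 0.06 in siRpl14 (2.53e-05), -0.57 ± 0.06 in siRpl18 (2.72e-05) and -0.64 ± 0.06 in siRpl23 (1.28e-05). Mean FPKM was 57.6% to 64.5% of siNT for replicates 1 and 2 and 61.9% to 80.6% in the third libraries. Xpc started at about the middle of the expressed genes, with 52.5% of tested genes lower in siNT, and Ddb2 lower down, with 35.8% of genes below it.

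Ercc5 showed the largest change of the 5 in siRpl14, siRpl18 and siRpl23. It was measured at 14.4 and 14.9 FPKM in siRpl11, 28.8 and 32.2 in siRpl14, 31.6 and 32.9 in siRpl18, and 31.2 and 31.0 in siRpl23, against 10.7 and 10.7 in siNT. The third libraries held 9.88, 26.7, 24.1 and 26.4 FPKM in these knockdowns, against 6.38 in siNT. Within each table siRpl11 lay above siNT and below the other knockdowns, with no overlap. The fold change was 0.42 ± 0.06 in siRpl11 (limma adjusted p = 7.90e-05), 1.43 ± 0.06 in siRpl14 (2.46e-08), 1.51 ± 0.06 in siRpl18 (1.32e-08) and 1.46 ± 0.06 in siRpl23 (1.79e-08). In mean FPKM these were 1.37-fold, 2.85-fold, 3.02-fold and 2.91-fold, and 1.55-fold, 4.19-fold, 3.78-fold and 4.14-fold in the third libraries. Of all genes, 2.01% to 2.19% had a higher fold change in siRpl14, siRpl18 and siRpl23, and 12.9% did in siRpl11. The trophectoderm markers given above were high in siRpl14, siRpl18 and siRpl23 too, the groups with the highest Ercc5 and Polk, and their part in this result was not tested.

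Polk, the translesion polymerase, was measured at 6.14 and 5.52 FPKM in siRpl11, 9.77 and 9.57 in siRpl14, 10.8 and 10.2 in siRpl18, and 10.003 and 9.61 in siRpl23, against 5.77 and 5.63 in siNT. In siRpl11 the first-table libraries lay on either side of siNT. The third libraries held 6.56, 9.63, 10.3 and 8.34 FPKM in the knockdowns, against 3.50 in siNT, where siRpl11 was higher too. The fold change was 0.67 ± 0.06 in siRpl14 (limma adjusted p = 9.85e-06), 0.78 ± 0.06 in siRpl18 (2.80e-06) and 0.69 ± 0.06 in siRpl23 (7.02e-06). In siRpl11 it was 0.03 ± 0.06 (adjusted p = 0.724), with a 95% interval of -0.11 to 0.17. That call came with quantile normalization (0.24, adjusted p = 0.00506) and with all 15 libraries (0.27, adjusted p = 0.0474). In mean FPKM Polk was 1.70-fold, 1.84-fold and 1.72-fold higher in siRpl14, siRpl18 and siRpl23, and 1.02-fold in siRpl11.

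The siNT values of Polk and Ercc5 were lower in the third library (3.50 and 6.38 FPKM) than in replicates 1 and 2 (5.70 ± 0.0994 and 10.7 ± 0.0351). The third libraries of siRpl14 and siRpl18 held Polk at levels near those of replicates 1 and 2 (9.63 against 9.67 ± 0.144, and 10.3 against 10.5 ± 0.384). In siRpl23 Polk was lower in the third library (8.34 against 9.81 ± 0.277), and in siRpl11 higher (6.56 against 5.83 ± 0.434). Ercc5 was lower in the third library of every knockdown (9.88 against 14.7 in siRpl11, 26.7 against 30.5 in siRpl14, 24.1 against 32.3 in siRpl18 and 26.4 against 31.1 in siRpl23). The tables were normalized separately. Against their siNT library, the third libraries differed for Polk by 0.75 in siRpl11, 1.24 in siRpl14, 1.33 in siRpl18 and 1.05 in siRpl23 on the log2(FPKM + 1) scale, and for Ercc5 by 0.56, 1.91, 1.77 and 1.89. All of these values rest on 1 siNT library, and the difference between tables was not tested.

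Rrm2b was the lowest of the 5, with 7% of tested genes below it in siNT. It was measured at 0.959 and 0.871 FPKM in siRpl11, 1.49 and 1.44 in siRpl14, 1.41 and 1.53 in siRpl18, and 1.63 and 1.33 in siRpl23, against 1.26 and 1.04 in siNT. The third libraries held 0.963, 1.53, 1.49 and 1.29 FPKM in these knockdowns, against 1.76 in siNT. In the first table siRpl14, siRpl18 and siRpl23 were thus above siNT, and in the third libraries below it, while siRpl11 was the lowest group in both. The fold change was -0.16 ± 0.09 in siRpl11 (limma adjusted p = 0.147), 0.20 ± 0.09 in siRpl14 (0.0867), 0.20 ± 0.09 in siRpl18 (0.0781) and 0.21 ± 0.09 in siRpl23 (0.0776). The 95% intervals were -0.37 to 0.05 in siRpl11, -0.01 to 0.41 in siRpl14, -0.01 to 0.42 in siRpl18 and -0.0044 to 0.42 in siRpl23. In siRpl11 the sign turned with quantile normalization (0.11, adjusted p = 0.287), and with all 15 libraries the fall was called (-0.27, adjusted p = 0.0256). At this level, 8 of 10 first-table libraries reached the 1 FPKM that the filter asks of 2 libraries. Its paralog Rrm2, the small subunit made in S phase, was at 138 ± 2.94 FPKM in siRpl11, 165 ± 2.37 in siRpl14, 189 ± 5.55 in siRpl18 and 173 ± 2.53 in siRpl23, against 174 ± 2.74 in siNT, which per length is far above Rrm2b in every group.

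**Figure D2:**
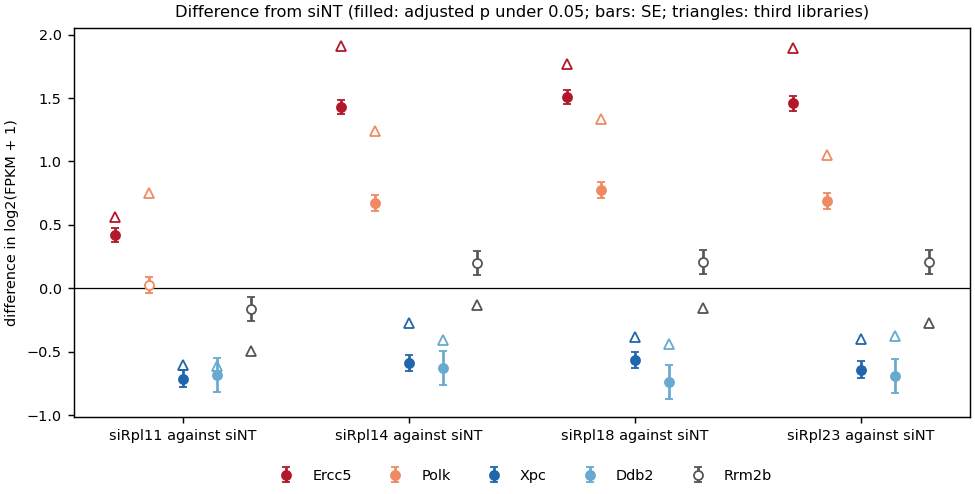
Difference from siNT in log2(FPKM + 1) for each gene in each knockdown; circles with SE bars come from replicates 1 and 2 (filled where the adjusted p was under 0.05) and triangles from the third libraries. The circles of Ercc5 run from 0.42 in siRpl11 to 1.51 in siRpl18, the circles of Xpc and Ddb2 lie between -0.74 and -0.57 and their triangles between -0.62 and -0.28, and the triangles of Rrm2b lie below 0 where its circles in siRpl14, siRpl18 and siRpl23 lie above.

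Knockdowns were then compared with each other, in 6 pairs. Over the 4 knockdowns, the moderated F test passed for Ercc5 (limma adjusted p = 4.25e-07), Polk (1.63e-05) and Rrm2b (0.0136), but not for Xpc (0.231) or Ddb2 (0.896); 60.8% of all genes passed it. All calls for single pairs involved siRpl11. Ercc5 was higher than in siRpl11 by 1.01 ± 0.06 in siRpl14, 1.09 ± 0.06 in siRpl18 and 1.04 ± 0.06 in siRpl23 (largest limma adjusted p = 4.13e-07). Polk was higher than in siRpl11 by 0.65 ± 0.06 in siRpl14, 0.75 ± 0.06 in siRpl18 and 0.66 ± 0.06 in siRpl23 (largest adjusted p = 1.72e-05). Rrm2b was higher than in siRpl11 by 0.36 ± 0.09 in siRpl14 (adjusted p = 0.00756), 0.37 ± 0.09 in siRpl18 (0.00816) and 0.37 ± 0.09 in siRpl23 (0.00770). The third libraries gave the same signs, with Rrm2b at 0.36, 0.34 and 0.22. The Rrm2b differences lost their calls with quantile normalization (0.07, 0.11 and 0.08) and without siRpl11 replicate 2 (adjusted p of 0.0513, 0.0548 and 0.0525), and the one in siRpl23 also without siRpl23 replicate 1 (0.0642). In each pair with siRpl11, 3 of 5 genes were higher and none lower. Over all genes 42.4% were higher and 16.7% lower in siRpl14, 36.2% and 17.1% in siRpl18, and 40.8% and 14.6% in siRpl23.

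Xpc differed from siRpl11 by 0.12 ± 0.06 in siRpl14 (95% interval -0.02 to 0.26), 0.14 ± 0.06 in siRpl18 (0.00 to 0.29) and 0.07 ± 0.06 in siRpl23 (-0.07 to 0.21), and passed in none (adjusted p of 0.0843 to 0.372). With all 15 libraries Xpc passed as higher than in siRpl11 in siRpl14 (0.19, adjusted p = 0.0269) and siRpl18 (0.17, adjusted p = 0.0493), and with quantile normalization as lower in siRpl23 (-0.18). Ddb2 differed by 0.05 ± 0.14 in siRpl14, -0.05 ± 0.14 in siRpl18 and -0.01 ± 0.14 in siRpl23, with intervals reaching from -0.36 to 0.36. Among siRpl14, siRpl18 and siRpl23 none of the 15 differences (5 genes in 3 pairs) passed, where 14.3% of all genes did between siRpl18 and siRpl14, 0.514% between siRpl23 and siRpl14 and 3.51% between siRpl23 and siRpl18. By limma none of them had an unadjusted p under 0.05 either. The largest were -0.11 ± 0.14 for Ddb2 and 0.11 ± 0.06 for Polk, both in siRpl18 against siRpl14, and the interval of the Polk difference was -0.04 to 0.25.

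In order of mean level, Ercc5 ran siRpl18 (32.3 FPKM), siRpl23 (31.1), siRpl14 (30.5), siRpl11 (14.7), siNT (10.7). The steps among siRpl18, siRpl23 and siRpl14 did not exceed the spread, and the steps from siRpl14 to siRpl11 and from siRpl11 to siNT passed. Polk ran siRpl18 (10.5), siRpl23 (9.81), siRpl14 (9.67), siRpl11 (5.83), siNT (5.70), where the step from siRpl14 to siRpl11 was the one that passed. For Xpc the order was siNT (11.3), siRpl18 (7.27), siRpl14 (7.14), siRpl23 (6.87), siRpl11 (6.50), and for Ddb2 siNT (5.74), siRpl14 (3.35), siRpl11 (3.16), siRpl23 (3.15), siRpl18 (3.01). In both, the step next to siNT was the one that passed. Rrm2b ran siRpl23 (1.48), siRpl18 (1.47), siRpl14 (1.46), siNT (1.146), siRpl11 (0.915), and no neighbours in that order differed beyond their spread.

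**Figure D3:**
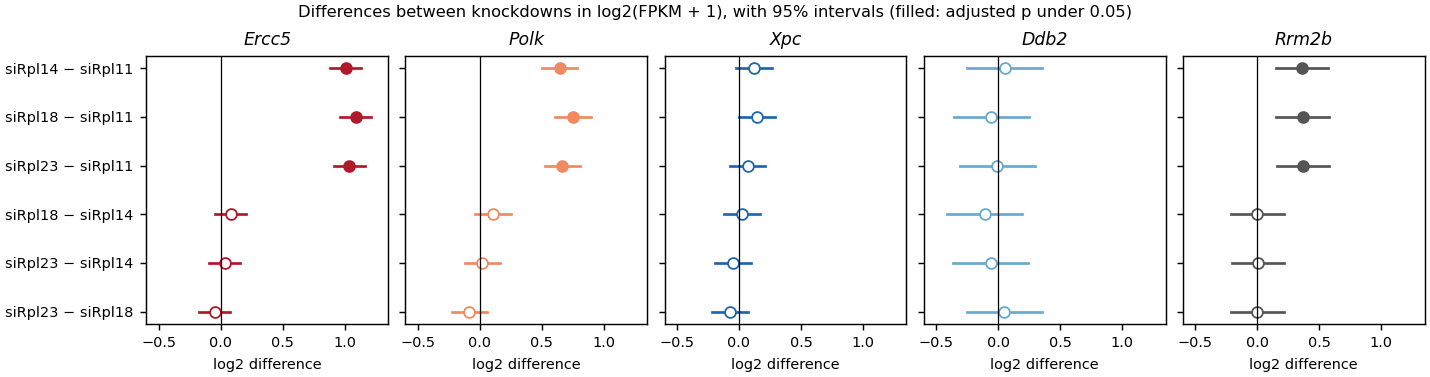
Differences between pairs of knockdowns in log2(FPKM + 1) for each gene, with 95% intervals; filled points passed an adjusted p of 0.05. The 9 filled points are the comparisons of siRpl14, siRpl18 and siRpl23 with siRpl11 for Ercc5, Polk and Rrm2b, and every interval between siRpl14, siRpl18 and siRpl23 includes 0.

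The likeness of 2 genes was measured as the root mean square difference of their log2(FPKM + 1), each taken relative to its own siNT mean, over the 10 libraries of the first table. Xpc and Ddb2 were the closest pair of the 5 (0.13), and Ercc5 and Ddb2 the farthest apart (1.74). Polk lay nearer to Rrm2b (0.41) than to Ercc5 (0.61) in this table. In the third libraries Polk differed from siNT by 0.75 to 1.33 and Ercc5 by 0.56 to 1.91, but Rrm2b by -0.49 to -0.13. Among all 12249 genes, the nearest to Ercc5 were Mcam, a cell adhesion molecule (0.04), and Fam214a (0.05). In the third libraries their distances were 0.20 and 0.07, and Fam214a was again among the nearest genes (rank 3, with Mcam at 54). Nearest to Polk were Cd81, a tetraspanin (0.05), and Pqlc3 (0.06), and nearest to Xpc were Cdk1, the mitotic kinase (0.04), and Il27ra, a cytokine receptor subunit (0.04). In the third libraries Cd81 ranked 32, Pqlc3 410, Cdk1 1105 and Il27ra 206. Nearest to Ddb2 were Fut10 and Nkd2 (both 0.10), which ranked 6765 and 667 in the third libraries. Nearest to Rrm2b were Nipal3 (0.04) and Zswim4 (0.05), which ranked 8159 and 9945 there.

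p53 and its other targets were examined in the same libraries. Trp53 was at 542 ± 3.804 FPKM in siRpl11, 304 ± 3.18 in siRpl14, 359 ± 0.459 in siRpl18 and 317 ± 10.9 in siRpl23, against 186 ± 5.07 in siNT. Its transcript was highest in siRpl11, the group where Ercc5 rose least. These data hold no p53 protein levels, and a relation between the Trp53 transcript and Ercc5 was not tested. Mdm2 was at 143 ± 5.48, 275 ± 2.54, 373 ± 3.37 and 350 ± 16.8 FPKM in siRpl11, siRpl14, siRpl18 and siRpl23, against 41.6 ± 0.511 in siNT. Cdkn1a (p21, a brake on cyclin-dependent kinases) was 1.17 ± 0.06 higher in siRpl14, 1.34 ± 0.06 in siRpl18 and 1.17 ± 0.06 in siRpl23 on the log2(FPKM + 1) scale. In siRpl11 Cdkn1a differed by 0.09 ± 0.06 (limma adjusted p = 0.192), and there it passed in a fit of all 15 libraries (0.21) or after median-ratio scaling (0.23). Cdkn1a, Polk and Rev1 missed the threshold in siRpl11 and passed in the other 3, and so did Ddb1, a partner of Ddb2. The share of all genes that did so was not counted, so this is not a result about these genes. In the third libraries Cdkn1a, Polk and Rev1 were higher in siRpl11 than in siNT (58.2 against 42.7, 6.56 against 3.50 and 19.3 against 11.7 FPKM), but Ddb1 was not (312 against 323). With all 15 libraries Cdkn1a, Polk and Rev1 passed in siRpl11 (0.21, 0.27 and 0.30), and Ddb1 did not (-0.02). Of 30 genes listed for p53 and its targets, 22 were higher and 5 lower in siRpl11, and 26 higher and 3 lower in each of the other knockdowns. The list medians were 0.53, 1.10, 1.25 and 1.14 in siRpl11, siRpl14, siRpl18 and siRpl23, against -0.11, 0.02, -0.02 and 0.02 over all genes. The list does not hold the 5 repair genes. The largest rises in this list were those of Perp, a membrane protein (2.05 to 4.56 over the 4 knockdowns), the kinase Plk2 (2.58 to 3.27), the death receptor Fas (1.75 to 3.59) and the costimulatory ligand Cd80 (1.94 to 3.15). In all 4 knockdowns 22 of the 30 were higher and 2 lower, against 17.2% and 22.7% of all genes, and the 2 were Polh and Sesn1. This list was chosen with earlier results of these data known, so its counts, medians and largest rises are descriptive only.

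Partners and paralogs of the 5 genes were compared next. Ddb1, with which Ddb2 forms UV-DDB, was at 363 to 421 FPKM in the knockdowns and 366 in siNT. Ddb1 was higher by 0.20 in siRpl14, 0.12 in siRpl18 and 0.15 in siRpl23, and in siRpl11 (-0.01) it passed only with median-ratio scaling (0.13). Rad23b, which stabilises the Xpc protein, rose by 0.60 ± 0.05 in siRpl11, 0.27 ± 0.05 in siRpl18 and 0.17 ± 0.05 in siRpl23, and missed the threshold in siRpl14 (0.10, limma adjusted p = 0.143), where quantile normalization gave a call (0.13). Ercc4, a subunit of the nuclease that makes the other incision, fell in siRpl11 (-0.40 ± 0.07) and rose in siRpl14 (0.30 ± 0.07), siRpl18 (0.59 ± 0.07) and siRpl23 (0.52 ± 0.07). The Ercc4 fall ended with quantile normalization (-0.15), and its rise in siRpl14 ended with all 15 libraries (0.20). In the third libraries Ercc4 differed by -0.33 in siRpl11 but by 0.0034, 0.074 and 0.093 in siRpl14, siRpl18 and siRpl23. Ercc1, the other subunit, passed in none, but with all 15 libraries it rose in siRpl14, siRpl18 and siRpl23 (0.21 to 0.22). Xpa, which verifies the lesion, passed in siRpl14 only (0.47 ± 0.12), and under other scalings also in siRpl11 (0.45 and 0.33) or, with all 15 libraries, in siRpl23 (0.59). Rrm1, the large subunit of ribonucleotide reductase, fell by 0.24 to 0.37 in all 4 knockdowns, and by 0.10 in siRpl11 with median-ratio scaling. Rrm2 fell in siRpl11 (-0.33 ± 0.04), rose in siRpl18 (0.12 ± 0.04), and was at -0.08 in siRpl14 and -0.01 in siRpl23, where it missed the threshold, though median-ratio scaling gave a call in siRpl14 (-0.10) and a fall of -0.20 in siRpl11.

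The translesion polymerases also split. Polh, itself a known p53 target, fell by 0.37 to 0.62 in all 4 knockdowns, the reverse of Polk in siRpl14, siRpl18 and siRpl23. Poli fell by 0.18 to 0.26, a call that ended in siRpl11 with median-ratio scaling (-0.09) and in siRpl23 with all 15 libraries (-0.10). Rev1, which recruits the other polymerases, rose by 0.52 ± 0.05 in siRpl14, 0.70 ± 0.05 in siRpl18 and 0.65 ± 0.05 in siRpl23. In siRpl11 Rev1 was at 0.11 ± 0.05 (limma adjusted p = 0.0751), and it passed with quantile normalization (0.16), median-ratio scaling (0.24) and all 15 libraries (0.30). Pcna, the clamp that holds polymerases on DNA, fell by 0.32 to 0.49 in all 4, and by 0.18 in siRpl11 with median-ratio scaling. In the third libraries Polh differed by -0.30 in siRpl11 and -0.19 in siRpl18, and Poli by 0.062 in siRpl23, opposite in sign.

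**Figure D4:**
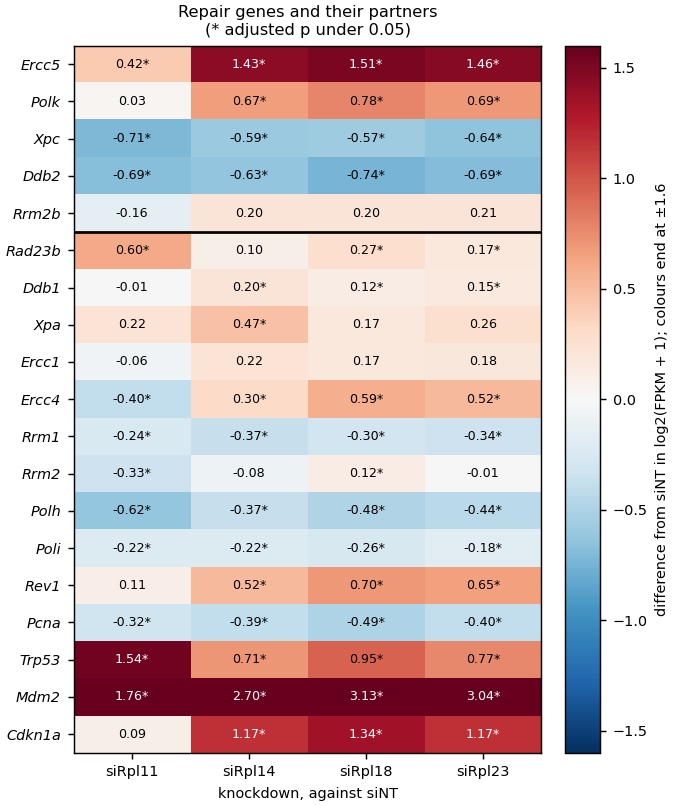
Difference from siNT in log2(FPKM + 1) for the 5 repair genes (above the line) and for partners, paralogs and p53 pathway genes (below it), with asterisks at an adjusted p under 0.05. Polh is negative in all 4 knockdowns, Polk is positive at 0.67 to 0.78 in siRpl14, siRpl18 and siRpl23 and at 0.03, without an asterisk, in siRpl11, and Ddb1 lies between -0.01 and 0.20 where Ddb2 lies between -0.74 and -0.63.

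Other repair pathways were counted from lists of their genes, and the counts stand against the shares of all genes given above (27.3% to 34.9% higher and 29.5% to 43.6% lower). Of 30 nucleotide excision repair genes, 9 were higher and 9 lower in siRpl11, 14 and 7 in siRpl14, 10 and 6 in siRpl18, and 14 and 5 in siRpl23, with medians of 0.04 to 0.16. As shares these were 30.0% higher in siRpl11, 46.7% in siRpl14, 33.3% in siRpl18 and 46.7% in siRpl23, so those in siRpl11 and siRpl18 were near that of all genes. In siRpl11 that balance depended on scaling (13 higher and 6 lower with quantile normalization, 15 and 3 with median-ratio scaling). The ligase partner Xrcc1 rose by 0.35 to 1.21 and the ubiquitin ligase scaffold Cul4b by 0.45 to 0.69. Of 15 translesion genes that passed the filter, out of 16, 1 to 3 were higher (6.67% to 20%) and 6 to 8 lower. In siRpl11 40% were lower, under the 43.6% of all genes, and 46.7% to 53.3% were in the other knockdowns. The median in siRpl11 (-0.12) was 0.02 with median-ratio scaling. Of 15 genes of deoxyribonucleotide supply, 1 to 3 were higher (6.67% to 20%) and 3 to 7 lower. The lower shares in siRpl11, siRpl14, siRpl18 and siRpl23 were 46.7%, 20%, 40% and 26.7%. Over all genes they were 43.6%, 29.5%, 34.7% and 30.8%. Of 28 recombination and Fanconi genes, 3 to 5 were higher and 15 or 16 lower, but in siRpl11 9 were higher and 9 lower with quantile normalization. Among them Brca1 fell by 0.68 to 0.80, Fanca by 0.62 to 0.87 and Fancd2 by 0.43 to 0.66, though Fanca differed by -0.18 in the third library of siRpl14.

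Of 18 base excision repair genes, 3 or 4 were higher and 8 or 9 lower (44.4% to 50% lower, in siRpl11 near the 43.6% of all genes), with the glycosylases Neil2 (-1.43 to -0.94) and Neil3 (-0.94 to -0.57) and the strand-break sensor Parp1 (-0.79 to -0.59) lower in all 4. Of 8 mismatch repair genes, 0 or 1 were higher and 3 to 5 lower (in siRpl11 37.5% lower, under the 43.6% of all genes). In siRpl11 the median of -0.04 turned to 0.07 with quantile normalization and 0.09 with median-ratio scaling. Of 9 end joining genes, 3 or 4 were higher and 2 to 4 lower (in siRpl11 44.4% lower, near the 43.6% of all genes). The median in siRpl11 of -0.13 was 0.10 with quantile normalization, and Nhej1 rose by 0.49 to 0.99 over the 4 knockdowns. The third libraries gave 0.0071 in siRpl11 and 0.24 in siRpl14 for Nhej1, and -0.16 in siRpl23 for Neil3. Of 15 damage signalling genes, 3 were higher in each knockdown and 5 to 9 lower (in siRpl11 33.3% lower, under the 43.6% of all genes). In siRpl11 7 were higher and 5 lower with median-ratio scaling. Trp53bp1 rose by 0.63 to 0.92, whereas H2afx fell by 0.60 to 0.83 and Mdc1 by 0.43 to 0.69. Ercc5 in siRpl14, siRpl18 and siRpl23 rose by more than any gene named from these repair lists.

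**Figure D5:**
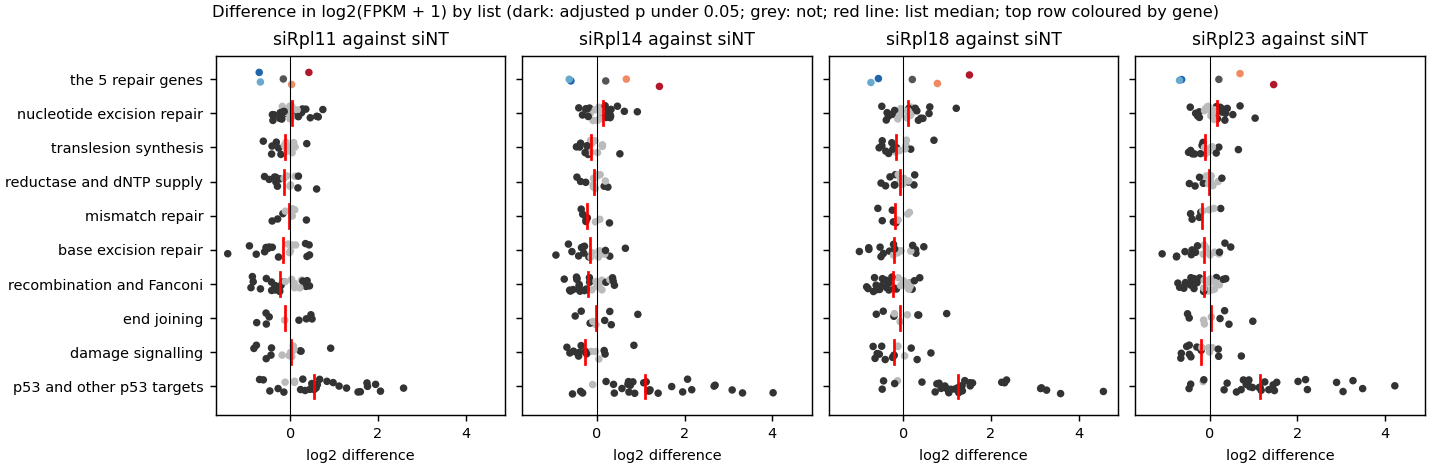
Difference from siNT in log2(FPKM + 1), one point per gene, by list and knockdown; dark points passed an adjusted p of 0.05 and red lines are list medians. The list of p53 and its other targets has medians of 0.53 to 1.25, the repair lists have medians between -0.26 and 0.16, and the 5 repair genes in the top row lie on both sides of 0.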

How the data were processed

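The authors deposited normalized FPKM per gene, made with STAR and Cuffnorm against mm9 according to the submitters' processing notes; their versions, annotation and settings are not stated in any source used here. The kit was stranded and selected polyadenylated RNA, per the labels' protocols. Absolute depth is unknown, and relative depth came from the densest ratio between libraries over genes at low FPKM. Among the first table's columns, 2 belong to no sample listed here and were left out.

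Genes reaching 1 FPKM in 2 or more first-table libraries were tested on log2(FPKM + 1) of the deposited values with limma 3.58.1 in R 4.3.3 (a term per group, eBayes with trend, 5 residual degrees of freedom). All 5 repair genes passed this filter. Across genes, r between replicates 1 and 2 was 0.991 to 0.996, and none was treated as a duplicate.

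The 5 genes and all lists were chosen with earlier results of these data known. Named genes were the members, the 2 genes most like each, listed partners, and per list and direction up to 4 genes called at 1.5-fold or more in at least 3 knockdowns. Acp2, Elf5, Sesn1, Nanog, Esrrb, Sall4 and Thy1 were named after their values were seen. Alternatives were a pseudocount of 0.1, no filter, quantile normalization, median-ratio scaling, all 15 libraries with the table as a term, the replicate block, only the groups compared, and leaving out each library.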

Additional observations from a re-analysis of the deposited data

Results flagged for a closer look

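A difference among the 4 knockdowns was marked for a closer look, where the moderated F test passed for Rrm2b (limma adjusted p = 0.0136), Polk (1.63e-05) and Ercc5 (4.25e-07). For Rrm2b it did not pass with quantile normalization or without either siRpl11 library.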

How the results depend on the processing

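Values are differences in log2(FPKM + 1), and passing means a limma adjusted p under 0.05. The changes of Ercc5, Xpc and Ddb2 in all 4 knockdowns, and of Polk in siRpl14, siRpl18 and siRpl23, kept their direction and passed in all 17 alternatives. In siRpl11, Rrm2b was at 0.11 with quantile normalization, its sign turned, and passed at -0.27 with all 15 libraries. Polk in siRpl11 passed at 0.24 with quantile normalization and 0.27 with all 15 libraries, so that 2 members were then higher there, and it ran from -0.038 (without siRpl11 replicate 1) to 0.091 when single libraries were left out. Rrm2b passed in siRpl18 at 0.22 with quantile normalization, and in siRpl23 at 0.29 without siRpl23 replicate 2 (0.12 to 0.29 over single libraries left out). The F test of Rrm2b over the 4 knockdowns gave an adjusted p of 0.6859 with quantile normalization and 0.0110 to 0.130 with single libraries left out, and did not pass without either siRpl11 library.

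Small differences from siRpl11 changed sign, or gained a call with all 15 libraries (Xpc at 0.19 in siRpl14 and 0.17 in siRpl18). Xpc turned to -0.12 in siRpl14, -0.061 in siRpl18 and -0.18 in siRpl23, where it passed, with quantile normalization, and to -0.022 in siRpl14 and -0.070 in siRpl23 with median-ratio scaling. Ddb2 turned in siRpl14 to -0.26 with quantile normalization and -0.071 after median-ratio scaling, and in the fit of all 15 libraries to 0.021 in siRpl18 and 0.077 in siRpl23. Without single libraries Ddb2 ran from -0.12 to 0.22 in siRpl14, -0.13 to 0.018 in siRpl18 and -0.069 to 0.058 in siRpl23. The cause was not tested. Same-numbered libraries were not shown to be pairs: over 10 pairs of groups their deviations correlated at -0.0858 to 0.195, 5 of them over 0.1. With the replicate block the F test of Rrm2b gave 0.0116, and no call of a member changed. Absolute depth is unknown, and Rrm2b, near 1 FPKM, is the lowest of the 5 genes.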
